A study of Homo sapiens with 12 samples.

Results

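Glucose catabolism and the citric acid cycle were examined through 50 genes, chosen by symbol from the 60612 rows of the count table, in ZR-75-1 cells with and without *RB1* and with and without abemaciclib. All 50 symbols were found once and all 50 passed the tool's filter on low counts in every comparison. They comprised 23 genes of glycolysis, its regulators and its glucose and lactate carriers, 6 genes of the pyruvate dehydrogenase (PDH) gate, 6 of the pentose phosphate pathway, 12 of the tricarboxylic acid (TCA) cycle and 3 of the feeder reactions around it, here called anaplerosis. The TCA list, and every count of TCA genes below, includes *IDH1* and *MDH1*, whose products are cytosolic isozymes. ZR-75-1 is a human breast cancer cell line that expresses the oestrogen receptor. The 4 groups were sgControl cells (a non-targeting guide RNA, *RB1* intact) and *RB1*-knockout cells (CRISPR–Cas9), each kept for 5 days in 500 nM abemaciclib, which blocks the cell cycle kinases CDK4 and CDK6, or in DMSO as solvent (0 nM), with 3 replicates per group. Edited lines were grown from sorted single cells, and the number of clones behind these libraries is not given in the sources used here, so a genotype difference and a difference between clones cannot be told apart.

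Glycolysis splits glucose into pyruvate in the cytosol, and lactate dehydrogenase and the monocarboxylate carriers dispose of that pyruvate as lactate. The pentose phosphate pathway branches off at glucose 6-phosphate, yielding NADPH and ribose 5-phosphate for nucleotides. The PDH complex admits pyruvate into mitochondria as acetyl-CoA, which the TCA cycle oxidises, and pyruvate carboxylase, malic enzyme and the mitochondrial PEP carboxykinase move carbon into or out of that cycle. Several steps have alternative isozymes encoded by separate genes, and in many tumours glycolytic genes are transcribed above the level of the normal tissue.

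RNA was sequenced in bulk to totals between 39907318 and 81636393 counts per library, so all but the scarcest members were limited by the spread between replicates and not by depth. *RB1* was at 4154, 4825 and 4752 in sgControl DMSO, 2252, 2375 and 2489 in sgControl abemaciclib, 39.6, 49.6 and 51.2 in *RB1*-knockout DMSO, and 54.4, 44.2 and 63.5 in *RB1*-knockout abemaciclib (normalized counts, as throughout), and its groups by genotype did not overlap. The 6 luminal markers were high in all libraries, and all 3 basal markers (*KRT5*, *KRT14* and *TP63*) held 10 counts or fewer in each. Of the 3 leukocyte markers *PTPRC* and *CD3E* held 10 or fewer and *CD14* at most 14. Of the 3 fibroblast markers *COL1A1* was present at 1375 counts or more, *PDGFRB* reached 29 and *COL1A2* held at most 2. Of the 2 endothelial markers *PECAM1* held 10 counts or fewer and *VWF* was low but higher in treated libraries, with between 22 and 61 raw counts in sgControl DMSO, 91 and 111 in sgControl abemaciclib, 25 and 28 in *RB1*-knockout DMSO and 80 and 101 in *RB1*-knockout abemaciclib. Mitochondrially encoded genes took 3.49% ± 0.600 (SD, n = 3) of the counts in sgControl DMSO and 7.73% ± 0.702 in sgControl abemaciclib, against 3.98% ± 0.180 and 6.13% ± 1.09 in *RB1*-knockout cells, and the part of these genes and of the markers in the results was not tested. Replicate 1 of sgControl DMSO stood furthest from its group. The deposited design calls the libraries biological replicates and says no more of their origin, so p-values measure the spread between these samples, and in bulk RNA less RNA per cell and fewer expressing cells cannot be told apart.

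The 50 genes together took 2.25% ± 0.174 of all counts in sgControl DMSO, 2.01% ± 0.0771 in sgControl abemaciclib, 2.39% ± 0.0488 in *RB1*-knockout DMSO and 2.11% ± 0.0363 in *RB1*-knockout abemaciclib. Glycolysis supplied most of this, with 1.87% ± 0.165 in sgControl DMSO, against 0.219% ± 0.00341 for the TCA cycle and 0.104% ± 0.00652 for the pentose phosphate genes. Under abemaciclib the TCA share was 0.181% ± 0.00344 and the pentose phosphate share 0.0785% ± 0.000936 in sgControl cells, without overlap with the DMSO libraries. Glycolysis, at 1.71% ± 0.0802, overlapped its DMSO libraries. These are shares of total counts, and with that scaling the median log2 fold change of all genes was -0.12 for abemaciclib in sgControl. In *RB1*-knockout cells the shares in DMSO and abemaciclib were 1.98% ± 0.0481 and 1.76% ± 0.0368 for glycolysis, 0.130% ± 0.00194 and 0.0992% ± 0.00133 for the pentose phosphate genes and 0.224% ± 0.00260 and 0.209% ± 0.00251 for the TCA cycle. In these cells each of the pathways, glycolysis included, was lower in abemaciclib without overlap with the DMSO libraries.

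The upstream sequences of 4 members are shown because they are the enolase pair, whose members went opposite ways in knockout cells, the gene with the widest change (*LDHB*) and the glycolytic gene with the largest rise in sgControl cells (*PKM*). Each is the 250 bases before the RefSeq start (GRCh38.p14), read 5′ to 3′ on the gene's strand, with matches to the 5 motifs searched in capitals.
ENO1 (chr1:8878687-8878936, minus strand): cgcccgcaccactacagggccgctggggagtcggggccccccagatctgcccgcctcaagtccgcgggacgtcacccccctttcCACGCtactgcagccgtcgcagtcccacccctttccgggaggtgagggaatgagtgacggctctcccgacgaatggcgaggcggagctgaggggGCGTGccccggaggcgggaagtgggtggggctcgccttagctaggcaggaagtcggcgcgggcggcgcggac
ENO2 (chr12:6914330-6914579, plus strand): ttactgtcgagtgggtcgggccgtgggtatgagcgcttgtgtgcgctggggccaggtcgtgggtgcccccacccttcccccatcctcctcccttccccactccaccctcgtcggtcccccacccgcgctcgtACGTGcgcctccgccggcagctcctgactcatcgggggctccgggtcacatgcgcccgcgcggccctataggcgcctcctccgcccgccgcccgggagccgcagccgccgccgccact
LDHB (chr12:21657843-21658092, minus strand): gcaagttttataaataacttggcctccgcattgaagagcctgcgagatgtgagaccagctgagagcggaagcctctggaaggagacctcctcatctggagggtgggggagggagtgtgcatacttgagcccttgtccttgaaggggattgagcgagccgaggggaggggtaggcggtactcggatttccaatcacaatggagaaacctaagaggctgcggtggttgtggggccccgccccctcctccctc
PKM (chr15:72231191-72231440, minus strand): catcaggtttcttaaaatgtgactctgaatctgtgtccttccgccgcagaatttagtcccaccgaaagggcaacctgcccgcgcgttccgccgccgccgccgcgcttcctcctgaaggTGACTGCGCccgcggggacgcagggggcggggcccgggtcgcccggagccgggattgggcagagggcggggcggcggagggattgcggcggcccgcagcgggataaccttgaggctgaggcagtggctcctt
The capitals in *ENO1* and *ENO2* mark the hypoxia response core (ACGTG or GCGTG on either strand), which lay in 43.2% of all 35116 RefSeq windows of this length and in 41 of the 79 windows of the 47 members matched (51.9%). The capitals in *PKM* mark the antioxidant response core (TGACNNNGC, either strand), found in 10.9% of windows and 9 of the 79 (11.4%). The *LDHB* window held none of the 5 motifs. The others searched were the E-box (CACGTG, which contains the hypoxia core; 6.34% of windows, 8 of the 79), an E2F site (TTTCCCGC, TTTCGCGC, TTTGGCGC or TTTGCCGC; 2.79% of windows, 4 of the 79, upstream of *GAPDH*, *PDHA1* and *PFKM*) and the CHR element (TTTGAA or TTCGAA; 14.3% of windows, 2 of the 79). These are letter matches only, and GENCODE has longer transcripts of these 4 genes that start further upstream. A member can have several windows, and *OGDH*, *PFKFB2* and *SLC16A1* had none in the table.

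The first comparison asked how these genes respond to CDK4/6 inhibition when *RB1* is intact. In sgControl cells abemaciclib was accompanied by lower RNA of several genes of lower glycolysis and lactate handling and of most TCA enzymes. *GAPDH*, *PGAM1* and, in glucose entry, *HK2* were not called. Higher RNA was called for *SLC2A1* and *HK1* of glucose entry and for *PFKFB2*, *PFKFB4*, *PDK2*, *PKM*, *PGD*, *OGDH* and *PC*, among others. Of the 50 members 13 rose and 23 fell (adjusted p under 0.05), beside 24.1% of all genes tested higher and 23.9% lower. Among the 11885 genes with a mean of at least 100 normalized counts, as all members but *ALDOC* and *PDK4* have, 34.5% were higher and 37.9% lower, a set against which 13 of 50 is a smaller share and 23 of 50 a larger one, untested. Scaled by total counts instead, the split was 10 higher and 30 lower, with the median of all genes at -0.12 on the log2 scale.

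The pathways differed in their make-up of calls, though no test compares them. Glycolysis was divided, with 8 of 23 genes higher, 10 lower and 5 not called, and a median log2 fold change of -0.11. The pentose phosphate genes had 1 higher, 2 lower and 3 not called (median -0.14), and the TCA cycle 1 higher, 9 lower and 2 not called (median -0.18), with a median of 0.0085 over all genes tested. The PDH gate had 2 higher and 4 not called, and anaplerosis 1 higher and 2 lower. The median size of the change regardless of sign was 0.61 for glycolysis, 0.36 for the pentose phosphate genes and 0.23 for the TCA cycle, beside 0.40 for genes of at least 100 counts. Changes of 2-fold or more were called for 5 glycolytic genes (*ENO2*, *LDHA*, *LDHB*, *PKM* and *SLC16A1*) and for *ME1*, and for none of the pentose phosphate, PDH or TCA genes.

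**Figure D1:**
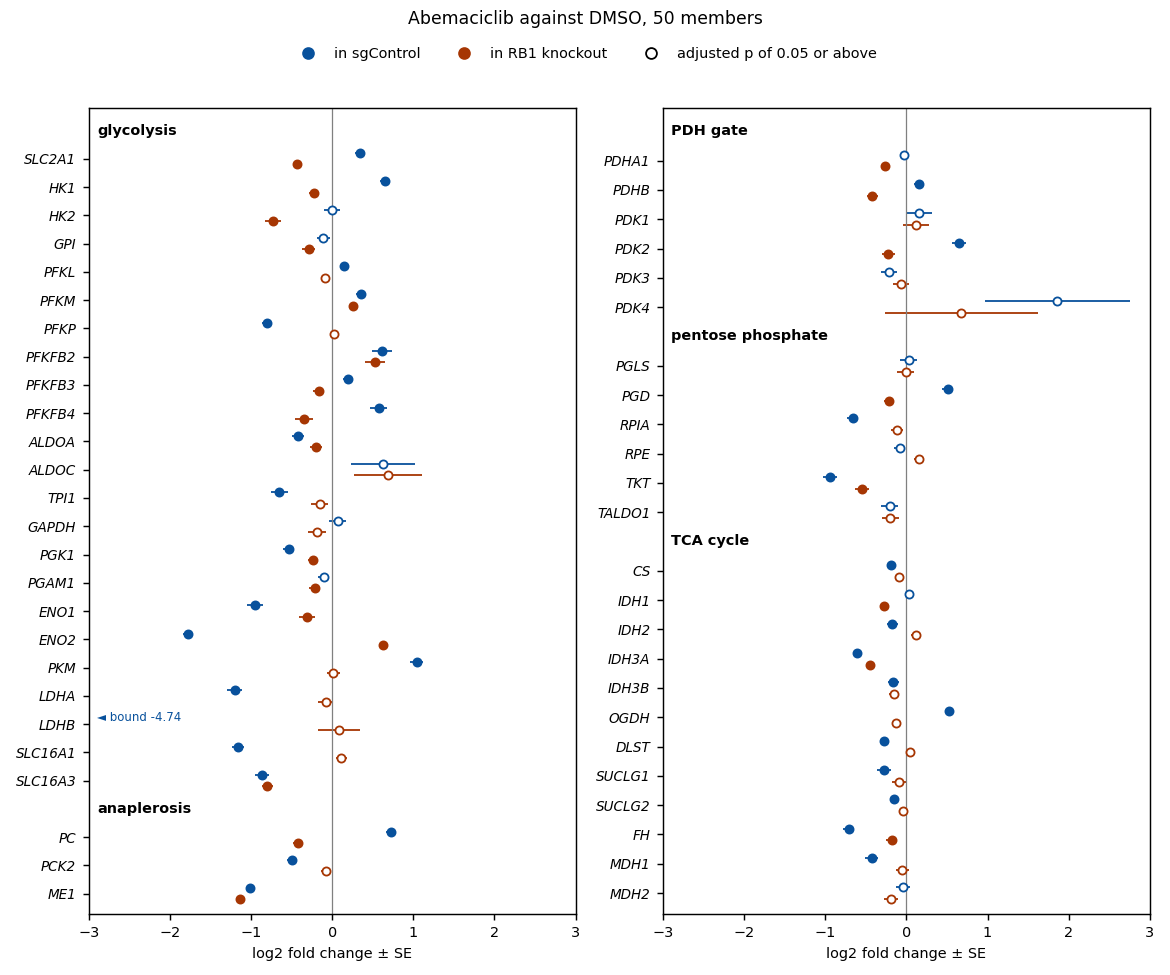
Log2 fold change of abemaciclib against DMSO ± SE for the 50 members by pathway, in sgControl cells (blue) and RB1-knockout cells (orange-brown), with open circles where the adjusted p was 0.05 or above. The blue points spread to both sides of 0 and most orange-brown points lie just below 0; LDHB in sgControl is drawn as a bound of -4.74 because its treated libraries held 3 counts or fewer.

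Glucose entry and the first commitments of glycolysis were examined in order. *SLC2A1*, which encodes the GLUT1 glucose transporter, was at 18058, 18274 and 16349.9 in sgControl DMSO, 23192, 21925 and 21633 in sgControl abemaciclib, 14863, 15534 and 14982 in *RB1*-knockout DMSO, and 11385, 11611 and 10736 in *RB1*-knockout abemaciclib. All sgControl abemaciclib libraries lay above all others and all knockout abemaciclib libraries below. The log2 fold change was 0.34 ± 0.057, adjusted p = 9.62e-09, in sgControl and -0.43 ± 0.058, adjusted p = 3.55e-12 in knockout cells. Here and below errors of fold changes are standard errors, and each p comes from the DESeq2 model over 12 libraries.

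Hexokinases phosphorylate glucose on entry. *HK1* rose by 0.65 with *RB1* intact and without it fell by 0.22 on the log2 scale. *HK2*, the inducible isozyme, was at 3445, 4313 and 4527 in sgControl DMSO, 3946, 4405 and 3959.8 in sgControl abemaciclib, 3933, 3726 and 3803 in *RB1*-knockout DMSO, and 2071, 2501 and 2341 in *RB1*-knockout abemaciclib. Its sgControl groups overlapped, with a fold change of 0.0026 ± 0.099, adjusted p = 0.992 and a 95% interval of -0.19 to 0.20, whereas knockout cells in abemaciclib lay below all others (-0.73 ± 0.10, adjusted p = 9.64e-12). *GPI*, which isomerises glucose 6-phosphate, was not called with *RB1* intact (-0.11) and fell without it (-0.29).

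Phosphofructokinase-1 makes the committed step of glycolysis. *PFKP* (chr10:3066333-3137718, plus strand), its platelet-type isozyme, was at 11523, 11662 and 10853 in sgControl DMSO, 6864, 6339 and 6279 in sgControl abemaciclib, 13609, 14741 and 13554 in *RB1*-knockout DMSO, and 14217, 14417 and 14074 in *RB1*-knockout abemaciclib. Treated sgControl libraries stood lowest, without overlap with any other group (-0.81 ± 0.055, adjusted p = 4.88e-47 in sgControl, 0.027 ± 0.055, adjusted p = 0.771 in knockout cells). *PFKL* and *PFKM* rose in sgControl cells, by 0.14 and 0.35. The call on *PFKL* was lost with total-count scaling (adjusted p = 0.854) and on the compared groups only (adjusted p = 0.125).

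The PFKFB enzymes set the level of fructose 2,6-bisphosphate, an activator of phosphofructokinase-1. *PFKFB3* was at 2680.1, 2944 and 2905 in sgControl DMSO, 3103, 3395 and 3266 in sgControl abemaciclib, 3301, 3281 and 3341 in *RB1*-knockout DMSO, and 2778, 3173 and 2889.8 in *RB1*-knockout abemaciclib, in opposite directions by genotype (0.20 ± 0.065, adjusted p = 0.00645 in sgControl, -0.17 ± 0.066, adjusted p = 0.0391 in knockout cells), although both calls were lost with total-count scaling (adjusted p = 0.61 and adjusted p = 0.182), the first also on the compared groups only (adjusted p = 0.071) and without replicate 2 of sgControl abemaciclib (adjusted p = 0.0541), and the second also without a filter on low counts (adjusted p = 0.0679). *PFKFB2* rose in both genotypes (0.61 and 0.53), and *PFKFB4* rose in sgControl and fell in knockout cells (0.57 and -0.35).

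The middle steps were mostly lower in sgControl abemaciclib. Aldolase *ALDOA*, triosephosphate isomerase *TPI1* and phosphoglycerate kinase *PGK1* fell by 0.43, 0.65 and 0.53 on the log2 scale, and *ALDOA* and *PGK1* also fell in knockout cells. *ALDOA* shares exons with another gene on its strand, so that reads there may not have been counted. *ALDOC*, a second aldolase with between 12.5 and 62.5 normalized counts, and phosphoglycerate mutase *PGAM1* were not called in sgControl cells. Glyceraldehyde 3-phosphate dehydrogenase (*GAPDH*), which makes the first NADH of the pathway, was at 620318, 525043 and 439681 in sgControl DMSO, 619829.9, 515271 and 526692 in sgControl abemaciclib, 570298, 627642 and 578021 in *RB1*-knockout DMSO, and 544333, 495437 and 518162 in *RB1*-knockout abemaciclib. The sgControl groups overlapped, and the gene passed the test in none of the 5 comparisons over all libraries, with 95% intervals of -0.14 to 0.28 for the response in sgControl and -0.40 to 0.020 in knockout cells.

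Enolases convert 2-phosphoglycerate to phosphoenolpyruvate. *ENO1*, the ubiquitous form, fell in both genotypes (-0.95 ± 0.099, adjusted p = 5.53e-21 and -0.31 ± 0.099, adjusted p = 0.00931). *ENO2* (chr12:6913745-6923698, plus strand), known as the neuronal enolase, was at 7333, 7097 and 6873 in sgControl DMSO, 1967, 2046 and 2168 in sgControl abemaciclib, 7797, 8200.4 and 8122 in *RB1*-knockout DMSO, and 12551, 12405 and 12321 in *RB1*-knockout abemaciclib. No library of one group reached the range of another: the order was sgControl abemaciclib, sgControl DMSO, knockout DMSO and knockout abemaciclib. *ENO2* fell in sgControl cells (-1.78 ± 0.051, adjusted p = 1.31e-268) and rose in knockout cells (0.63 ± 0.048, adjusted p = 3.25e-36), the only member with that pair of calls.

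Pyruvate kinase closes glycolysis. *PKM* (chr15:72199029-72231819, minus strand), whose spliced forms M1 and M2 are not separated in these counts, was at 87914, 78301 and 68772 in sgControl DMSO, 172707, 154065 and 156439 in sgControl abemaciclib, 67681, 72823 and 68474 in *RB1*-knockout DMSO, and 72414, 68659 and 69709 in *RB1*-knockout abemaciclib. It rose 2.06-fold in sgControl cells (1.04 ± 0.081, adjusted p = 1.9e-36), and the other 3 groups lay well below the treated sgControl libraries. In knockout cells the fold change was 0.012 ± 0.081, adjusted p = 0.938.

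Lactate dehydrogenase and the lactate carriers showed some of the widest differences. *LDHA* (chr11:18394560-18408425, plus strand), the isozyme that favours lactate formation, was at 41376, 35172 and 31079.5 in sgControl DMSO, 16536, 14945 and 15332 in sgControl abemaciclib, 34828, 37001 and 36872 in *RB1*-knockout DMSO, and 36279, 31887 and 34655 in *RB1*-knockout abemaciclib. Treated sgControl libraries held at most 16536 normalized counts and every other library at least 31079.5 (-1.20 ± 0.091, adjusted p = 1.43e-38 in sgControl, -0.080 ± 0.091, adjusted p = 0.567 in knockout cells).

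*LDHB* (chr12:21635342-21757857, minus strand), the heart-type isozyme, was far less abundant, at 113, 52.0 and 63.6 in sgControl DMSO, 0, 2.7 and 0.88 in sgControl abemaciclib, 240.4, 185 and 244 in *RB1*-knockout DMSO, and 299, 208 and 204 in *RB1*-knockout abemaciclib. The raw counts in sgControl abemaciclib were 0, 3 and 1, so the change is given against a floor of 3 counts per library: *LDHB* was at least 26.8-fold lower in abemaciclib than in DMSO (adjusted p = 7.6e-14), which covers counting error only. In knockout cells the treated and untreated libraries overlapped (0.086 ± 0.26, adjusted p = 0.852). Its exons overlap an unnamed gene on the same strand.

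*SLC16A1* (chr1:112911847-112957593, minus strand), which encodes the lactate carrier MCT1, was at 2229.5, 2335 and 2097 in sgControl DMSO, 1023, 1018 and 935 in sgControl abemaciclib, 2131, 2228 and 2355 in *RB1*-knockout DMSO, and 2444, 2312 and 2514 in *RB1*-knockout abemaciclib. Treated sgControl libraries were the low ones (-1.16 ± 0.070, adjusted p = 1.01e-60), and in knockout cells the fold change was 0.11 ± 0.068, adjusted p = 0.212. *SLC16A3* (chr17:82217934-82261129, plus strand), the carrier MCT4 known from glycolytic cells, was at 565, 556 and 519 in sgControl DMSO, 289, 322 and 285 in sgControl abemaciclib, 2705, 2799.6 and 2706 in *RB1*-knockout DMSO, and 1547, 1644 and 1524 in *RB1*-knockout abemaciclib. No group overlapped another. The 2 genotypes differed more than the treatments did, and abemaciclib was followed by a fall of like size in both (-0.87 ± 0.081, adjusted p = 1.73e-25 in sgControl and -0.80 ± 0.065, adjusted p = 5.18e-33 in knockout cells; difference 0.066 ± 0.10, adjusted p = 0.671, 95% interval -0.14 to 0.27).

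**Figure D2:**
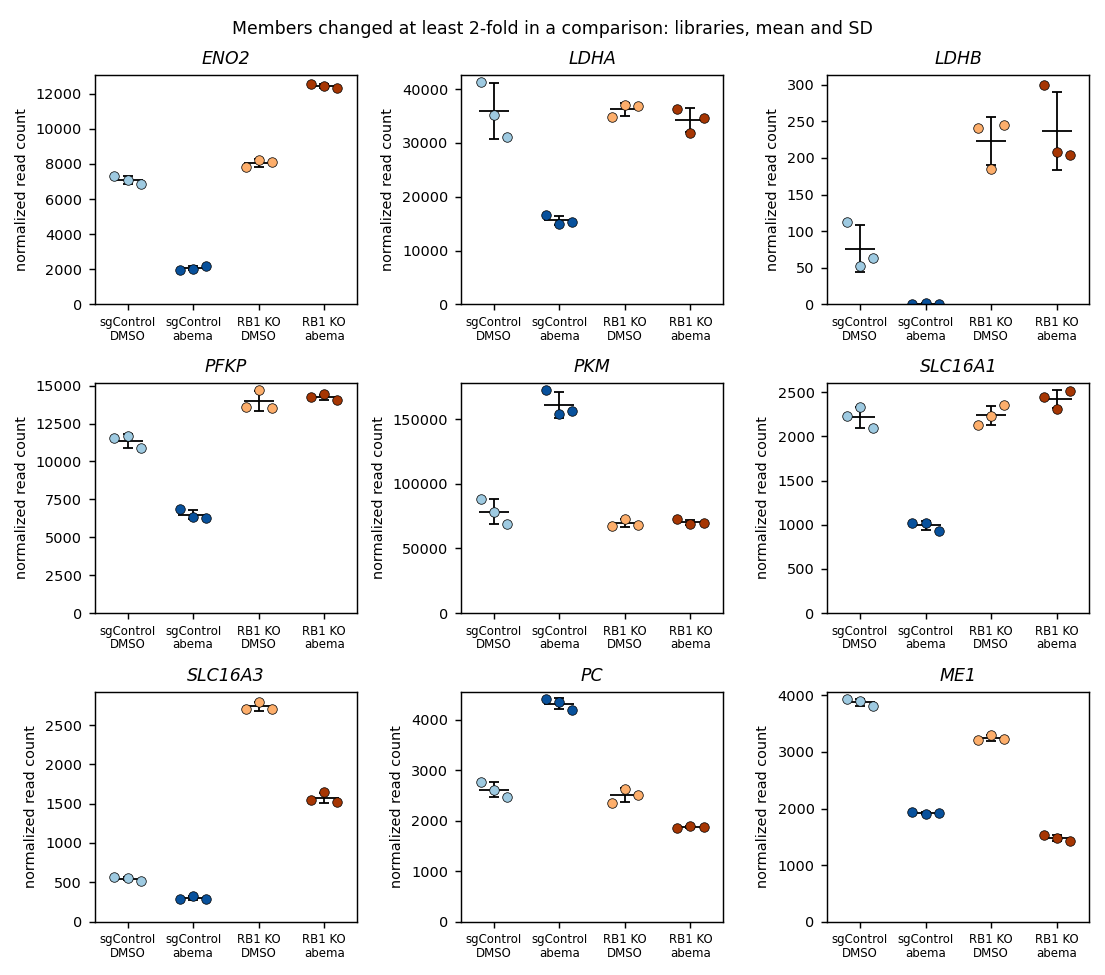
Normalized read counts of the 9 members with a change of at least 2-fold in a comparison, with a point for each library and the mean and SD of 3 (linear axes from 0). Treated sgControl libraries are apart from the other 3 groups for LDHA, PFKP, PKM, SLC16A1 and PC, while SLC16A3 separates by genotype and ME1 by treatment.

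The PDH gate admits pyruvate to the mitochondrion. *PDHA1*, its catalytic alpha subunit, was at 6309, 6089 and 6267 in sgControl DMSO, 6003, 5992 and 6309 in sgControl abemaciclib, 5716, 5610.2 and 5734 in *RB1*-knockout DMSO, and 4504, 4962 and 4787 in *RB1*-knockout abemaciclib. Both knockout groups lay below sgControl and the treated one lowest (-0.028 ± 0.049, adjusted p = 0.686 in sgControl and -0.26 ± 0.050, adjusted p = 2.34e-06 in knockout cells). *PDHB*, the beta subunit, was called higher in sgControl (0.15 ± 0.063, adjusted p = 0.0357), with overlapping replicates and a call that was lost on leaving out any 1 of 10 libraries, adjusted p = 0.0509 to 0.165, and fell in knockout cells (-0.42 ± 0.065, adjusted p = 3.43e-09).

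PDH kinases inactivate the complex by phosphorylation. *PDK2*, the most abundant of them here, rose in sgControl (0.65 ± 0.082, adjusted p = 1.42e-14) and fell in knockout cells (-0.22 ± 0.083, adjusted p = 0.0283). *PDK4*, induced by fasting in other tissues, was at 0.93, 0.88 and 4.4 in sgControl DMSO, 12.9, 5.3 and 6.2 in sgControl abemaciclib, 1.4, 3.3 and 4.5 in *RB1*-knockout DMSO, and 6.8, 6.3 and 2 in *RB1*-knockout abemaciclib, too low for a direction to be read. *PDK1* and *PDK3* were called in neither genotype. The gate thus had 2 genes higher in sgControl, and 3 lower in knockout cells.

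In the pentose phosphate pathway *PGD* of the oxidative arm rose in sgControl cells, while *RPIA* and *TKT* of the non-oxidative arm fell. *PGD*, which yields NADPH and ribulose 5-phosphate, was at 15331, 14494 and 13055 in sgControl DMSO, 21296, 19884 and 19788 in sgControl abemaciclib, 13414, 14236 and 13942 in *RB1*-knockout DMSO, and 12328, 11563 and 11881 in *RB1*-knockout abemaciclib. Treated and untreated libraries did not overlap in either genotype, with 0.51 ± 0.064, adjusted p = 1.03e-14 in sgControl and -0.22 ± 0.064, adjusted p = 0.00375 in knockout cells. *TKT*, the transketolase that returns pentoses to glycolysis, was at 36037, 31803 and 27405 in sgControl DMSO, 17619, 15650.0 and 16329 in sgControl abemaciclib, 45906, 49813 and 46799 in *RB1*-knockout DMSO, and 33393, 31773 and 32429.9 in *RB1*-knockout abemaciclib. Untreated knockout cells stood highest and treated sgControl cells lowest, and the remaining groups overlapped each other. *TKT* fell in both genotypes (-0.94 ± 0.086, adjusted p = 8.45e-27 and -0.55 ± 0.086, adjusted p = 4.59e-09). Ribose 5-phosphate isomerase *RPIA* fell in sgControl (-0.66 ± 0.072, adjusted p = 3e-19) and was not called in knockout cells (-0.11). *RPE*, an epimerase, *PGLS*, the lactonase, and transaldolase *TALDO1* were not called in either, at -0.084, 0.029 and -0.20 in sgControl.

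Changes of TCA cycle enzymes in sgControl cells were mostly small falls. *CS*, citrate synthase, was at 16592, 17091 and 16088 in sgControl DMSO, 14515, 14710.5 and 14541 in sgControl abemaciclib, 17691, 18311 and 18273 in *RB1*-knockout DMSO, and 17337, 16532 and 17227 in *RB1*-knockout abemaciclib. The fall in sgControl was small and without overlap (-0.19 ± 0.040, adjusted p = 1.52e-05), and the knockout change of -0.087 ± 0.040, adjusted p = 0.09 was not called. *FH* (fumarase), *IDH3A* (catalytic subunit of the NAD-dependent isocitrate dehydrogenase) and *MDH1* (cytosolic malate dehydrogenase) had the largest falls of the pathway in sgControl, -0.71 ± 0.067, adjusted p = 9.94e-26, -0.60 ± 0.057, adjusted p = 1.89e-25 and -0.43 ± 0.077, adjusted p = 1.03e-07. *SUCLG1*, *SUCLG2*, *DLST*, *IDH2* and *IDH3B* fell by 0.28, 0.16, 0.27, 0.17 and 0.16. The call on *IDH2* was lost without replicate 1 of sgControl DMSO or replicate 2 of sgControl abemaciclib (adjusted p = 0.054 and 0.0633), and that on *IDH3B* without any 1 of 3 libraries, adjusted p = 0.108 to 0.152.

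*OGDH*, the first subunit of the 2-oxoglutarate dehydrogenase complex, was the TCA member that rose (0.53 ± 0.051, adjusted p = 3.31e-24 in sgControl, -0.12 ± 0.051, adjusted p = 0.0546 in knockout cells), although *DLST*, the second subunit of that complex, fell. *IDH1*, the cytosolic NADP-dependent isocitrate dehydrogenase, was at 6362, 5973 and 6123 in sgControl DMSO, 6432, 6056 and 6332 in sgControl abemaciclib, 4216, 4236 and 4374 in *RB1*-knockout DMSO, and 3615, 3567 and 3449.7 in *RB1*-knockout abemaciclib. The sgControl groups overlapped (0.028 ± 0.047, adjusted p = 0.675), while both knockout groups lay below them and treated knockout cells lowest (-0.27 ± 0.049, adjusted p = 4.39e-07). *MDH2*, the mitochondrial malate dehydrogenase, passed the test in no comparison, although several alternatives called it lower in treated knockout cells. In knockout cells 3 TCA genes fell (*IDH1*, *IDH3A* and *FH*), none rose and 9 were not called. Without replicate 1 of sgControl DMSO 6 fell and 1 rose, without its replicate 3 it was 5 and 0, and on the compared groups only 7 and 1.

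The 3 feeder genes each behaved differently. *PC* (chr11:66848417-66958386, minus strand), pyruvate carboxylase, which makes oxaloacetate from pyruvate, was at 2772, 2600.0 and 2468 in sgControl DMSO, 4413, 4350.0 and 4196 in sgControl abemaciclib, 2359, 2635 and 2507 in *RB1*-knockout DMSO, and 1853, 1896 and 1872 in *RB1*-knockout abemaciclib. Treated sgControl cells stood highest and treated knockout cells lowest, without overlap (0.73 ± 0.060, adjusted p = 3.16e-32 and -0.42 ± 0.063, adjusted p = 1.01e-09). *PCK2*, mitochondrial PEP carboxykinase, was at 5615, 5225 and 4803 in sgControl DMSO, 3846, 3545 and 3710.4 in sgControl abemaciclib, 6239.5, 6601 and 6135 in *RB1*-knockout DMSO, and 5961, 5989.9 and 6070.2 in *RB1*-knockout abemaciclib. It fell in sgControl cells (-0.49 ± 0.064, adjusted p = 6.19e-14), and the knockout change of -0.075 ± 0.064, adjusted p = 0.42 was not called although its libraries lay below those in DMSO. *ME1* (chr6:83210402-83431051, minus strand), the cytosolic malic enzyme that yields NADPH and pyruvate, was at 3932, 3897 and 3810.0 in sgControl DMSO, 1931, 1897 and 1912 in sgControl abemaciclib, 3216, 3303 and 3227 in *RB1*-knockout DMSO, and 1529, 1479 and 1425 in *RB1*-knockout abemaciclib. It fell in both genotypes by like amounts (-1.02 ± 0.047, adjusted p = 9.38e-102 and -1.14 ± 0.050, adjusted p = 1.87e-111), with a difference of -0.12 and a 95% interval of -0.25 to 0.017.

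The second comparison asked which of these responses occur without *RB1*. In knockout cells abemaciclib was followed by a rise of 3 members and a fall of 21, with 26 not called, beside 15.0% of all genes tested higher and 15.1% lower, and 18.3% and 22.3% of genes of at least 100 counts. The 3 that rose were *ENO2*, *PFKFB2* and *PFKM*. Without replicate 1 of sgControl DMSO, which enters through the shared spread, 5 rose. Leaving out 1 library ended the fall of *PFKFB3* (any 1 of 7 libraries, adjusted p = 0.051 to 0.189), *FH* (any 1 of 6 libraries, adjusted p = 0.0579 to 0.083), *ALDOA* (any 1 of 4 libraries, adjusted p = 0.0502 to 0.176), *PDK2* (any 1 of 4 libraries, adjusted p = 0.076 to 0.159), *ENO1* (without replicate 2 of either knockout group, adjusted p = 0.0594 and 0.0713), *PGAM1* (without replicate 2 of knockout DMSO, adjusted p = 0.0619) or *PFKFB4* (without replicate 3 of knockout abemaciclib, adjusted p = 0.103). By pathway, 3 rose and 11 fell in glycolysis, 2 fell in the pentose phosphate pathway and 3 in the TCA cycle, and the medians were -0.17, -0.16 and -0.11 against 0.017 over all genes. The median size of change was 0.22, 0.18 and 0.12 for those pathways, and 0.18 for genes of at least 100 counts.

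The calls in the 2 genotypes were set side by side, with the share of genes of at least 100 counts that had the same pair of calls. A rise in sgControl with a fall in knockout cells was called for 8 members, beside 4.91% of such genes: *SLC2A1*, *HK1*, *PFKFB3* and *PFKFB4* of upper glycolysis, *PDHB* and *PDK2* of the PDH gate, *PGD* and *PC*. A fall in both was called for another 8, beside 11.8%: *ALDOA*, *PGK1*, *ENO1*, *SLC16A3*, *TKT*, *IDH3A*, *FH* and *ME1*. A fall was called in sgControl and not in knockout cells for 14 members, beside 21.5%, namely *LDHA*, *LDHB*, *SLC16A1*, *PFKP*, *TPI1*, *RPIA*, *PCK2* and the TCA genes *CS*, *DLST*, *IDH2*, *IDH3B*, *MDH1*, *SUCLG1* and *SUCLG2*. The difference between the genotypes itself passed the test for all of the first 8 and for these 14 except *CS*, *IDH3B*, *SUCLG1* and *SUCLG2*. Neither genotype had a call for 9 members, beside 18.7%. No test compared these shares.

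The difference between the responses, tested as an interaction (the response in knockout cells minus that in sgControl), passed for 30 members: 16 positive and 14 negative, beside 21.0% and 20.2% of all genes tested and 29.3% and 30.0% of genes of at least 100 counts, so the share of members was near that of expressed genes. With total-count scaling the split was 21 and 10, and that of the TCA cycle 8 and 1. Glycolysis had 8 positive and 7 negative, the pentose phosphate genes 3 and 1, the TCA cycle 4 and 2, the PDH gate 0 and 3 and anaplerosis 1 and 1. Medians were -0.081 for glycolysis, 0.12 for the pentose phosphate genes and 0.14 for the TCA cycle, with 0.026 over all genes tested. Among the members that passed, the largest differences beyond *LDHB* were those of *ENO2* (2.41 ± 0.070, adjusted p = 8.56e-257), *SLC16A1* (1.28 ± 0.098, adjusted p = 1.49e-37), *PC* (-1.14 ± 0.087, adjusted p = 1.44e-37), *LDHA* (1.12 ± 0.13, adjusted p = 3.97e-17) and *PKM* (-1.03 ± 0.11, adjusted p = 4.82e-18). *PDK4*, with few counts, did not pass (-1.18 ± 1.30, adjusted p = 0.518).

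Without drug the differences between knockout and sgControl cells, of genotype or of clone, were smaller for most members. In DMSO 13 were higher and 9 lower in knockout than in sgControl cells and 28 were not called, beside 16.2% and 15.2% of all genes tested and 21.1% and 22.9% of genes of at least 100 counts. *SLC16A3* was 5.02-fold higher (2.33 ± 0.069, adjusted p = 1.06e-247) and *LDHB* 2.95-fold higher (1.56 ± 0.27, adjusted p = 5.97e-08), the only members past 2-fold. Next came *TKT* (0.58 ± 0.086, adjusted p = 2.62e-10), *IDH2* (0.40 ± 0.062, adjusted p = 1.99e-09), *ENO1* (0.32 ± 0.099, adjusted p = 0.00597) and *PFKP* (0.30 ± 0.055, adjusted p = 5.07e-07) on the higher side, and *IDH1* (-0.52 ± 0.048, adjusted p = 2.95e-26) and *PDHB* (-0.31 ± 0.064, adjusted p = 1.37e-05) on the lower. *PDHA1* (-0.13 ± 0.049, adjusted p = 0.0284) and *CS* (0.13 ± 0.040, adjusted p = 0.00828) were called here but not with edgeR, and *ENO1* was not called without replicate 2 of knockout DMSO (adjusted p = 0.0541). *LDHA* (0.014 ± 0.091, adjusted p = 0.932), *SLC16A1* (0.013 ± 0.068, adjusted p = 0.916), *HK1* (-0.026 ± 0.063, adjusted p = 0.818) and *PC* (-0.062 ± 0.062, adjusted p = 0.506), which differed widely under drug, were not called. The medians were 0.013, -0.057 and -0.026 for glycolysis, the pentose phosphate genes and the TCA cycle.

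In abemaciclib 19 members were higher and 15 lower in knockout than in sgControl cells, and 16 were not called, beside 27.5% and 26.4% of all genes tested and 36.1% and 38.1% of genes of at least 100 counts. Those with the largest values on the higher side were *LDHB* by at least 83.4-fold against the floor, *ENO2* by 6.03-fold (2.59 on the log2 scale), *SLC16A3* by 5.25-fold, *SLC16A1* by 2.45-fold, *LDHA* by 2.20-fold, *PFKP* by 2.19-fold, *TKT* by 1.97-fold and *ENO1* by 1.95-fold. Lower were *PC* (-1.20), *PKM* (-1.20), *SLC2A1* (-0.98), *HK1* (-0.90), *PDHB* (-0.88), *PDK2* (-0.88), *HK2* (-0.83), *IDH1* (-0.82), *PFKFB4* (-0.81) and *PGD* (-0.77). Of the other phosphofructokinase genes *PFKL* was lower (-0.32) and *PFKM* not called (-0.064). Of TCA genes 6 were higher and 3 lower. Blocking on the replicate number ended the call on *SUCLG2* (adjusted p = 0.0708) and added *PFKFB3* and *MDH2*. The call on *IDH3A* was lost on leaving out any 1 of 9 libraries, adjusted p = 0.0583 to 0.222. The same held for *SUCLG2* (any 1 of 9 libraries, adjusted p = 0.0583 to 0.147) and *ALDOA* (any 1 of 4 libraries, adjusted p = 0.0544 to 0.0659).

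The genotype comparisons share no libraries, but they share the model's estimate of the spread and may share a difference between clones. Of the members 10 were higher in knockout cells in both, 6 lower in both and 12 called in neither, beside 13.9%, 14.4% and 17.9% of genes of at least 100 counts. *LDHA*, *SLC16A1*, *TPI1*, *ALDOA*, *FH*, *IDH3A*, *MDH1* and *PDK3* were higher in abemaciclib and not called in DMSO, and *HK1*, *HK2*, *PC*, *PDK2*, *PFKFB4*, *PFKL*, *PGD* and *PKM* were lower in abemaciclib and not called in DMSO. *OGDH* was higher in DMSO and lower in abemaciclib (0.29 ± 0.051, adjusted p = 1.68e-07 and -0.36 ± 0.051, adjusted p = 8.64e-12), and *RPIA* the reverse (-0.26 ± 0.072, adjusted p = 0.0018 and 0.29 ± 0.075, adjusted p = 0.000283).

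**Figure D3:**
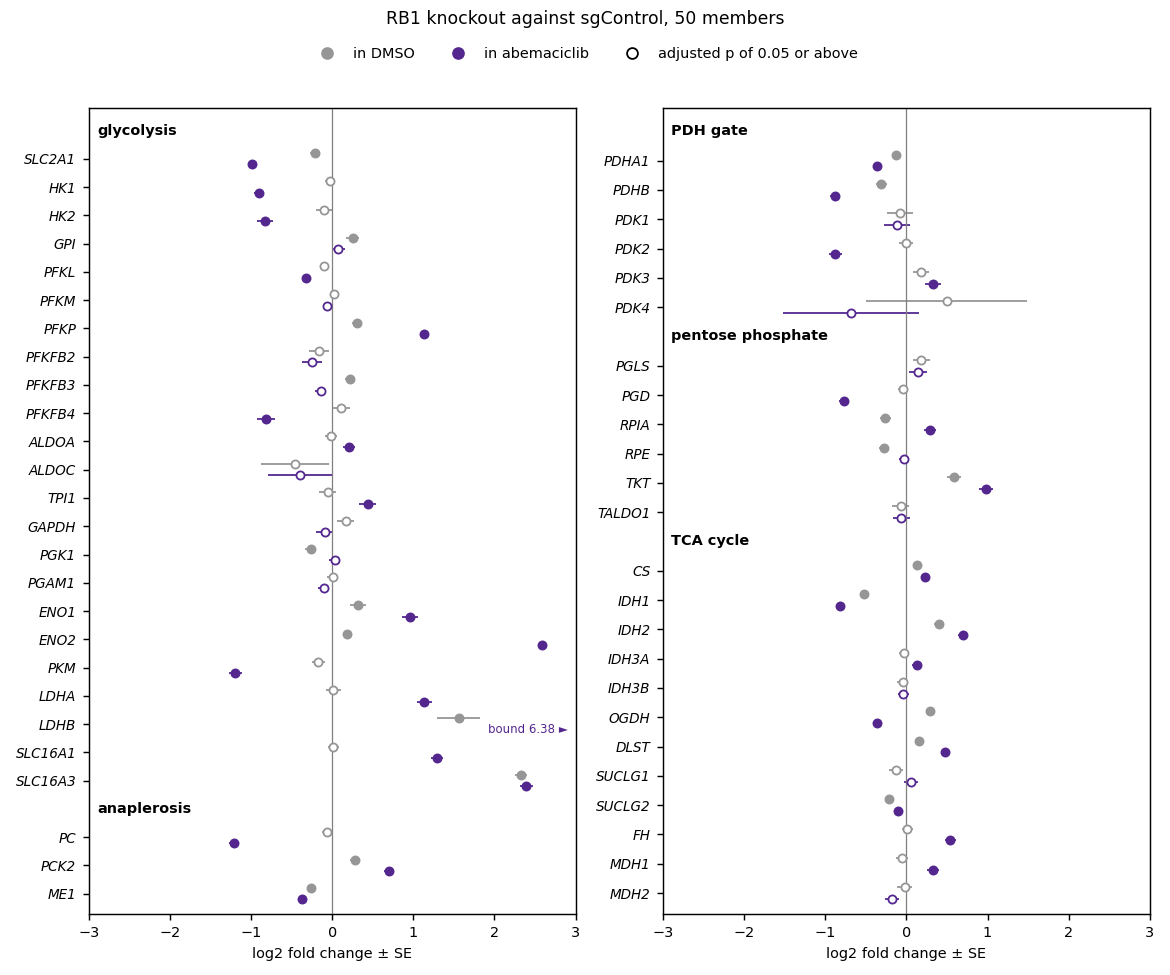
Log2 fold change of RB1 knockout against sgControl ± SE for the 50 members by pathway, in DMSO (grey) and in abemaciclib (purple), with open circles where the adjusted p was 0.05 or above. Grey points cluster near 0 except SLC16A3 and LDHB, and purple points spread to both sides; LDHB in abemaciclib is drawn as a bound of 6.38.

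Levels of different genes were compared only per length, as CPM divided by the kilobases of merged exons. *GAPDH* led in sgControl DMSO at 4025 ± 454 (SD, n = 3), followed by *TPI1* at 758 ± 99.8 and *ENO1* at 287 ± 28.1, whose libraries did not overlap. *PGK1* at 175 ± 8.27, *PKM* at 167 ± 10.7 and *MDH2* at 152 ± 13.9 came next, and *PGK1* and *PKM* did not differ beyond their SD. The median level was 30.4 for glycolysis, 29 for the TCA cycle and 25.4 for the pentose phosphate genes, so glycolysis exceeded the other pathways through its most abundant enzymes and not through its median gene. *PKM* reached 315 ± 9.73 in sgControl abemaciclib, when *ENO1* was at 136 ± 7.97 and *LDHA* at 43.4 ± 0.960, from 109 ± 9.29. If the libraries were made with a 3′ kit, which the study's general methods describe while the labels name a whole-transcript kit, division by length would not apply.

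Isozyme shares within 8 families came from the same length-scaled counts. A share depends on all genes of its family, so it can move while the gene's own RNA does not. *PFKP* supplied 35.1% ± 0.362 (SD, n = 3) of phosphofructokinase-1 RNA in sgControl DMSO and 21.6% ± 0.736 in sgControl abemaciclib, against 41.3% ± 0.580 and 42.3% ± 0.530 in knockout cells. *PFKL* held 56.3% ± 0.441 and 66.7% ± 0.973 in sgControl DMSO and abemaciclib. Its level per length, which is scaled by total counts, was 42.9 ± 1.23 and 43.3 ± 1.26. Its mean normalized count was 20874.5 and 23063, so whether its RNA changed depends on the scaling. *HK2* went from 22.2% ± 3.38 to 15.4% ± 1.14 of hexokinase RNA in sgControl and from 21.3% ± 0.947 to 16.0% ± 1.40 in knockout cells. In sgControl the mean normalized count of *HK2* was 4095 in DMSO and 4104 in abemaciclib, and that of *HK1* was 16671 and 26246. Per length *HK2* was at 12.8 ± 2.46 and 11.6 ± 1.00, and *HK1* at 44.5 ± 1.70 and 63.9 ± 2.49. *ENO2* went from 9.65% ± 1.07 to 5.63% ± 0.673 of enolase RNA in sgControl and from 8.76% ± 0.278 to 15.5% ± 0.479 in knockout cells, so its share moved in opposite directions.

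Among the lactate carriers *SLC16A3* held 14.5% ± 0.387 in sgControl DMSO, 17.2% ± 0.829 in sgControl abemaciclib, 45.7% ± 1.36 in knockout DMSO and 30.8% ± 1.76 in knockout abemaciclib. Its share rose in treated sgControl cells although its level per length fell from 1.09 ± 0.0257 to 0.543 ± 0.0482. *LDHB* was a minor part of lactate dehydrogenase RNA in every group, from 0.0158% ± 0.0183 in sgControl abemaciclib to 1.37% ± 0.239 in knockout abemaciclib. *ALDOC* stayed under 2% of aldolase RNA in all libraries. *PFKFB3* was the main PFKFB gene, at 63.2% ± 2.84 in sgControl DMSO and 56.3% ± 2.20 in sgControl abemaciclib. *PDK2* formed 82.2% ± 4.04 of PDH kinase RNA in sgControl DMSO and 89.0% ± 0.686 in sgControl abemaciclib, against 80.7% ± 1.89 and 78.7% ± 1.34 in knockout cells. These shares were not tested.

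**Figure D4:**
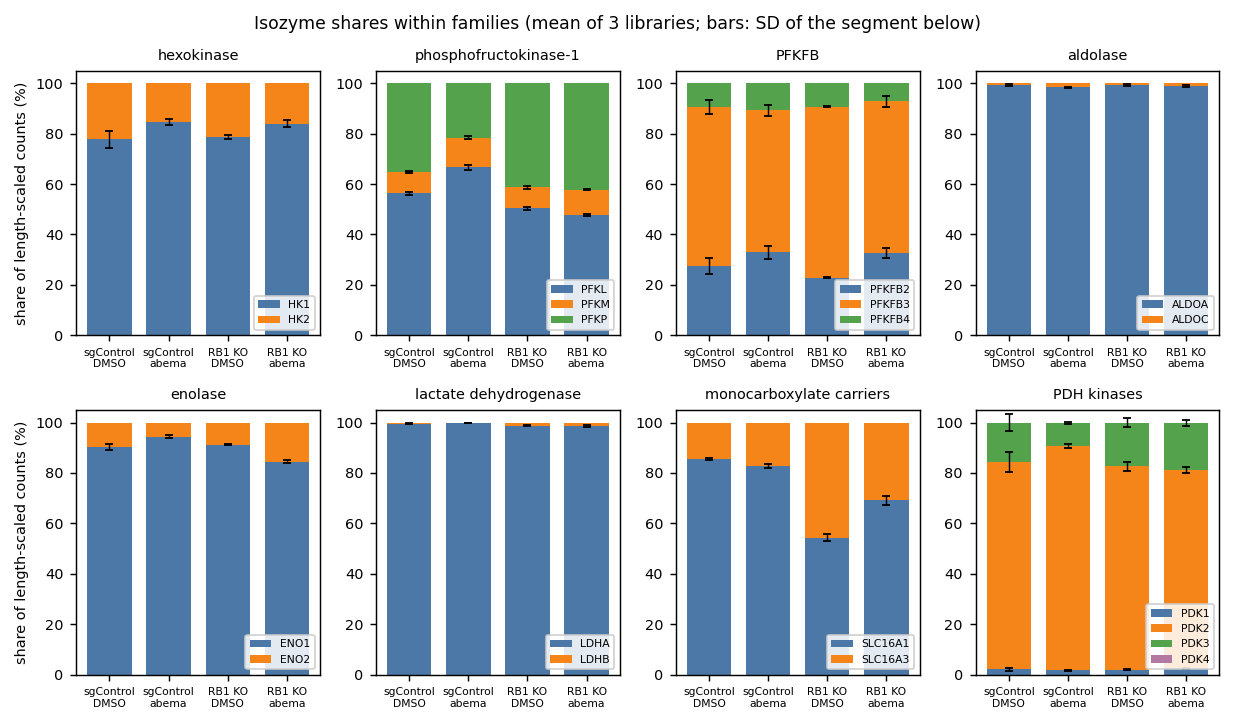
Share of each gene in the length-scaled counts of its family (%, mean of 3 libraries, error bars SD of the segment below) in the 4 groups. PFKP and ENO2 take smaller segments in treated sgControl cells than in the other groups, and SLC16A3 a larger segment in both knockout groups.

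Genes of the same pathways outside the 50 were examined through lists, and no test was run on their counts. Of all genes tested 24.1% rose and 23.9% fell in sgControl, and 15.0% and 15.1% in knockout cells. Among genes of at least 100 counts these shares were 34.5% and 37.9% in sgControl, and 18.3% and 22.3% in knockout cells. Among 11 other pentose phosphate and ribose genes 2 rose and 4 fell in sgControl, with *DERA* (-1.74 ± 0.086, adjusted p = 3.3e-90), *PRPS2* (-1.11 ± 0.065, adjusted p = 2.18e-64) and *PGM2* (-1.01 ± 0.064, adjusted p = 3.91e-55), which handle deoxyribose phosphate, phosphoribosyl pyrophosphate and pentose phosphates, falling most, and in knockout cells 2 rose and 3 fell of 8 tested. Of 20 other glycolytic genes tested 5 rose and 3 fell in sgControl, led by *LDHD*, a mitochondrial D-lactate dehydrogenase (2.19 ± 0.085, adjusted p = 5.21e-146), the transporter gene *SLC2A8* (0.99 ± 0.072, adjusted p = 4.21e-42) and *SLC2A10* (-0.91 ± 0.10, adjusted p = 4.14e-19), and 2 rose and 3 fell of 15 in knockout cells. *SLC16A7*, which encodes the carrier MCT2 and was chosen after its values were seen, held 2, 0 and 0 raw counts in sgControl abemaciclib, at least 20.8-fold below DMSO.

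Other genes of the PDH complex and the pyruvate carrier mostly rose in sgControl, 6 of 8 with 1 fall, including the PDH phosphatase genes *PDP2* (0.98 ± 0.075, adjusted p = 5.46e-38) and *PDP1* (0.91 ± 0.11, adjusted p = 6.99e-15), whose products reverse the action of PDH kinases, and *PDPR* (1.24 ± 0.087, adjusted p = 1.47e-44), which encodes the regulatory subunit that restrains the phosphatase. In that list 1 rose and 2 fell in knockout cells. Of 18 other TCA-linked genes 6 rose and 5 fell in sgControl, with *OGDHL* (1.54 ± 0.10, adjusted p = 5.78e-50) higher and the carrier gene *SLC25A11* (-0.54 ± 0.085, adjusted p = 1.1e-09) lower, and 6 of 17 fell and 0 rose in knockout cells. In the interaction, 9 of these 18 were negative and 3 positive, beside 30.0% and 29.3% of genes of at least 100 counts. For the responses, 34.5% of such genes rose and 37.9% fell in sgControl, and 18.3% and 22.3% in knockout cells.

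Lists of targets of regulators that act on these pathways were described in the same way, untested. Their counts stand beside 34.5% of genes of at least 100 counts higher and 37.9% lower in sgControl, and 18.3% and 22.3% in knockout cells. Targets of NRF2, the antioxidant regulator, fell in both genotypes, 6 of 7 in sgControl and 7 of 7 in knockout cells, among them *HMOX1* (-1.65 and -1.91), *TXNRD1* (-1.29 and -0.99) and *SLC7A11* (-1.81 and -0.76). HIF targets outside the members were mixed, with 6 of 12 higher and 2 lower in sgControl and 2 higher and 4 lower in knockout cells; *EGLN3* rose in sgControl and fell in knockout cells (1.17 and -0.65), *ADM* rose in both (1.17 and 0.74), and *BNIP3L* rose in sgControl (0.78). ATF4 targets had 2 higher and 4 lower of 8 in sgControl, with *PHGDH* (-1.45), *PSAT1* (-1.45) and *TRIB3* (-1.32) lower, and 1 higher and 3 lower in knockout cells. Of 5 glucose-sensing genes 4 rose and 1 fell in sgControl, namely *MLXIPL* (ChREBP, 1.86), *TXNIP* (1.17) and *ARRDC4* (0.68) among those that rose, and 1 rose and 2 fell in knockout cells. The factors' activity was not measured.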

How the data were processed

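Raw counts per gene were deposited by the authors for 12 libraries of the cell line ZR-75-1. Reads had been trimmed with BBDuk, aligned to hg38 with STAR 2.7.5b and counted with featureCounts 2.0.1 on GENCODE annotation, as the labels and the study's methods state. Strand setting and treatment of multiply aligned reads are not given in the sources used here: 23 members share exonic positions with an opposite-strand gene and 8 with a same-strand gene, and named pseudogene rows held at most 0.245% of a member's counts. The 44 unnamed rows, with 0% of counts, were left out.

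All 12 libraries entered a single group-wise negative binomial model in DESeq2 1.42.0 (R 4.3.3; median-of-ratios factors, two-sided Wald tests, Benjamini–Hochberg adjustment over all genes tested, threshold 0.05, no shrinkage). Its contrasts were tried on simulated counts with planted changes and the same spread for all genes, which does not test the fit to these libraries. Normalized counts are counts divided by size factors. Alternatives were edgeR 4.0.16, total-count factors, other filters, the compared groups only, a replicate block and leaving out each library. Same-numbered treated libraries of the genotypes deviated together (correlations 0.15, 0.26 and 0.11), beside at most -0.0016 for different numbers. Deviations were taken from the mean of each group, so positive values for same numbers make those for different numbers negative on balance. The latter therefore add nothing on pairing. In sgControl, however, libraries of different numbers reached 0.43 (replicate 3 of DMSO with replicate 2 of abemaciclib). No source states a pairing, so whether the numbers pair libraries is not known.

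Members, lists and tests were chosen with earlier results of these data known. Per-library values are given for members with a called change of at least 2-fold and for *SLC2A1*, *HK2*, *PFKFB3*, *GAPDH*, *PDHA1*, *PDK4*, *PGD*, *TKT*, *CS*, *IDH1* and *PCK2*. From each other list up to 3 genes were named by size of change in sgControl (called, mean of at least 100, no overlap of replicates), and some listed genes are not reported here. Gene positions are from GENCODE 44 on hg38, and promoters from RefSeq on GRCh38.p14.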

Additional observations from a re-analysis of the deposited data

Results flagged for a closer look

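The response to abemaciclib differed between *RB1*-knockout and sgControl cells for 30 of the 50 members by the interaction term of the DESeq2 model, beside 41.2% of all genes tested and 59.3% of genes of at least 100 counts (adjusted p from 8.56e-257 to 0.0211). Values are the log2 response in knockout cells minus that in sgControl. The difference was positive in glycolysis and lactate handling for *PFKP* (0.83), *TPI1* (0.49), *PGK1* (0.30), *ENO1* (0.65), *ENO2* (2.41), *LDHA* (1.12), *LDHB* (6.01) and *SLC16A1* (1.28). The fitted value of *LDHB* depends on a group with 3 counts or fewer per library and has no determined size. Positive differences in the other pathways were those of *RPIA* (0.55), *RPE* (0.24), *TKT* (0.40), *IDH2* (0.29), *DLST* (0.31), *FH* (0.53), *MDH1* (0.38) and *PCK2* (0.42). It was negative in glycolysis for *SLC2A1* (-0.77), *HK1* (-0.88), *HK2* (-0.73), *PFKL* (-0.23), *PFKFB3* (-0.36), *PFKFB4* (-0.92) and *PKM* (-1.03). Elsewhere it was negative for *PDHA1* (-0.23), *PDHB* (-0.57), *PDK2* (-0.87), *PGD* (-0.73), *IDH1* (-0.30), *OGDH* (-0.65) and *PC* (-1.14). The call on *RPE* was lost when any of several libraries was left out, and those on *PFKL*, *PFKFB3*, *PDHA1* and *IDH1* with total-count scaling. Whole libraries were not tested as outliers, while the default check of DESeq2 for outlying counts of single genes was left on.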

How the results depend on the processing

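Every call on a member kept its direction in all alternatives run except that on *SUCLG2* (knockout against sgControl in abemaciclib), whose log2 fold change of -0.10 was 0.012 with total-count factors. Counts over all 50 members called stayed within 1.5 times, apart from members higher in treated knockout cells, 3 in the model over all libraries, 5 on the compared groups only and 3 to 5 on leaving out a library (5 without replicate 1 of sgControl DMSO). Counts by pathway, some of them small, moved more. In treated knockout cells TCA genes lower were 3 in the model over all libraries, 5 with total-count factors or the replicate block, 7 on the compared groups only and 6 without replicate 1 of sgControl DMSO, and glycolytic genes lower were 11 and then 7 without replicate 2 of knockout DMSO. In sgControl, pentose phosphate genes lower were 2 and then 4 with total-count factors, and PDH gate genes higher 2 and then 1 with those factors, on the compared groups only or on leaving out any 1 of 9 libraries. For the genotypes in DMSO, TCA genes higher were 4 and then 2 with total-count factors or on the compared groups only, PDH gate genes lower 2 and then 1 under 9 of the 18 alternatives, and glycolytic genes lower 2 and then 4 without replicate 1 or 3 of sgControl DMSO. Total-count factors moved the median of all genes by more than 0.1 in comparisons with treated sgControl cells (medians -0.12, 0.16 for the interaction and 0.14 for the genotypes in abemaciclib) and moved the pathway medians there: glycolysis to -0.24, 0.065 and 0.051, the TCA cycle to -0.31, 0.27 and 0.21, and the pentose phosphate genes in the last to 0.17, where leaving out a library gave 0.013 to 0.084. With the longest transcript as length the *PFKP* share fell by 15.8 percentage points under abemaciclib, and with merged exons it fell by 13.6. The cause of these shifts was not tested. With the replicate block 13 members were higher and 22 lower for abemaciclib in sgControl (*IDH3B* was lost), 3 and 23 in knockout cells, 16 and 14 in the interaction, and 13 and 8 for the genotypes in DMSO (*PDHA1* was lost); outside treated cells the same-numbered libraries did not all deviate together. In DMSO the genotype calls on *PDHA1* and *CS* were lost on leaving out any 1 of 5 libraries, adjusted p = 0.0533 to 0.126, and any 1 of 3 libraries, adjusted p = 0.0646 to 0.0734, and the interaction of *RPE* on leaving out any 1 of 6 libraries, adjusted p = 0.0526 to 0.0782. Depth limits *LDHB*, *PDK4* and *ALDOC*.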
